A study of Mus musculus with 12 samples.

Results

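The Hox genes are the homeobox genes of the HoxA, HoxB, HoxC and HoxD clusters. They were taken as every entry of the deposited count table whose symbol is Hoxa, Hoxb, Hoxc or Hoxd followed by a number, which gave 39 of 24421 entries. HoxA held 11 of them, HoxB 10, HoxC 9 and HoxD 9. The measured tissue was the tibialis anterior, a muscle at the front of the lower hindlimb, and 12 total RNA libraries were sequenced from male mice aged 4 months. Of these libraries, 6 came from C57Bl/6 mice (WT) and 6 from mice of the mdx/mTR strain. In mdx mice the Dmd gene is disrupted, which encodes dystrophin, a protein that links the muscle fibre's cytoskeleton to its membrane. mTR denotes the mouse telomerase RNA, listed as Terc. The labels give neither the telomerase generation of the mdx/mTR mice nor whether the groups were littermates, so the effects of the alleles, the telomere state and the genetic background cannot be told apart. The libraries are numbered, and nothing in the labels says that each number is a separate mouse. P-values then measure the spread between these samples, which may be partly technical.

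Hox genes encode transcription factors that give positional identity along the body axis and along the limb. Each belongs to a paralog group, numbered by its place in its cluster, and the groups are switched on in embryos in the order in which they lie, so that low-numbered groups mark anterior levels and high-numbered groups posterior and distal ones. In the limb, group 9 and 10 genes pattern mainly the upper segment, group 11 genes the segment that holds the tibialis anterior, and group 13 genes the hand or foot. Connective tissue cells and muscle cells of adult limbs keep part of this positional pattern, and the genes are read with TALE homeodomain partners (Pbx, Meis and Pknox proteins).

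The results turn on the 5′ end of the HoxA cluster on chromosome 6, where Hoxa13, Hoxa11 and Hoxa10 are neighbours transcribed from the minus strand. In the GENCODE M21 annotation of the mm10 build, Hoxa13 lies at chr6:52257694-52260880, Hoxa11 at chr6:52242106-52245810 and Hoxa10 at chr6:52231197-52240854. Their promoters are shown because the first pair of genes fell together while the next gene did not pass the test. Each window runs from 250 bases before to 50 bases after a transcription start and comes from RefSeq (GRCm38.p6). Sequences read 5′ to 3′ on the minus strand, and capitals mark CG dinucleotides, the sites that DNA methylation uses. Hoxa10 has an outer and an inner start.
Hoxa13, chr6:52260831-52261130: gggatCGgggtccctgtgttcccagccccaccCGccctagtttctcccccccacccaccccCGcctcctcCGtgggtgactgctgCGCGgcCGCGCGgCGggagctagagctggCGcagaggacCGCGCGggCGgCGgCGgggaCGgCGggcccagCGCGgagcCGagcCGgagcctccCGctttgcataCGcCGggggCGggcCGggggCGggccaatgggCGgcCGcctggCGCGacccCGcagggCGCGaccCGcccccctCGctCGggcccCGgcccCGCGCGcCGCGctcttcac
Hoxa11, chr6:52245761-52246060: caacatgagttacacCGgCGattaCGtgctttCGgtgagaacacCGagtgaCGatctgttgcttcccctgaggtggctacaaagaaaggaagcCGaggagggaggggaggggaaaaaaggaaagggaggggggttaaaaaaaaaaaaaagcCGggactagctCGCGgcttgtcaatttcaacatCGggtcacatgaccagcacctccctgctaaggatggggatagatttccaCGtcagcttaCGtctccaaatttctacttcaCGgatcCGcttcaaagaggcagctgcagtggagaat
Hoxa10 outer start, chr6:52240805-52241104: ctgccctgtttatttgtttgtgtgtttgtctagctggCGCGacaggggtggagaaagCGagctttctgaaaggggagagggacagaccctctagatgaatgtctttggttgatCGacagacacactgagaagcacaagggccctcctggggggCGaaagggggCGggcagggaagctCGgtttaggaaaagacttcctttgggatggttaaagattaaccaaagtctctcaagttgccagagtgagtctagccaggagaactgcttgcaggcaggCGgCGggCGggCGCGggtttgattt
Hoxa10 inner start, chr6:52234890-52235189: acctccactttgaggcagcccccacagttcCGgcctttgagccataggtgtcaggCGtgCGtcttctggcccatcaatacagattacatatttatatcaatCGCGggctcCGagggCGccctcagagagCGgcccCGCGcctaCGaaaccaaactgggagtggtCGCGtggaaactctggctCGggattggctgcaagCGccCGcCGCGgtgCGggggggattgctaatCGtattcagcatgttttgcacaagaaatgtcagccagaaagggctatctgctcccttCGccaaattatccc
The Hoxa13 window was the richest of these in CG dinucleotides, with 45 and a GC content of 81%. The Hoxa11 window held 15 at 51% GC. The Hoxa10 windows held 12 at 54.3% GC (outer) and 21 at 57.3% GC (inner). Over all 32851 promoter windows of the RefSeq table the median was 7 CG dinucleotides and 52.7% GC. The 24 windows found for 22 of the 39 Hox genes had medians of 14.5 and 57.7%. The CCAAT box (CCAAT on either strand) occurred in the Hoxa13 window and the inner Hoxa10 window, in 15 of the 24 Hox windows and in 37.4% of all windows. The TATA box (TATAAA on either strand) occurred in the inner Hoxa10 window, in 4 of the 24 Hox windows and in 13.6% of all windows. TGATTNAT, TTTATG and TGACAG, cores bound by Pbx-Hox pairs, Cdx or posterior Hox proteins, and Meis or Pknox proteins, were also searched on both strands. They occurred in 2, 5 and 2 of the 24 Hox windows and in 3.22%, 11.9% and 19.2% of all windows, and none of the 4 windows shown held one. Promoters of Hoxc10 and Hoxb5 are not shown.

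Library totals ran from 35136327 to 60330410 counts. Levels are given as CPM (library counts scaled to a common total) after TMM scaling (trimmed mean of M-values), with the SD over the 6 libraries of a group. Dmd, the gene that the mdx allele disrupts, stood at 237 ± 6.90 CPM in WT against 46.8 ± 7.20 CPM in mdx/mTR. The Dmd groups did not overlap, which fits the labels. Only 2 Terc counts were found, both of them in WT replicate 3, so this gene did not serve as a check. Myofibre markers (Ckm, Acta1, Mylpf, Tnnt3, Pvalb and Atp2a1) summed to between 100805 and 137643 CPM in every library, which fits the labelled tissue. Keratinocyte markers Krt5 and Krt14, which would mark adhering skin, had 2 and 4 counts in all.

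Of the 39 Hox genes, 30 passed the filter on low counts and were tested. Another 4 (Hoxb1, Hoxb13, Hoxd1 and Hoxd12) had no count in any library. A count of 0 allows up to 3 counts, or 0.0460 to 0.0837 CPM depending on the library, and this limit covers counting error only. The remaining 5 had too few counts to be tested. Hoxd10, a gene of lumbar motor neurons and the limb, had 55 counts spread over all 12 libraries (22 in WT, 33 in mdx/mTR). Hoxc13, a gene of hair and nail, had 7 counts, Hoxd11 had 5, Hoxc12 had 3 and Hoxd13, a gene of the digits, had 1. The 5′ end of the HoxD cluster, which has a leading part in the embryonic foot, was therefore hardly detectable in this muscle, while groups 10, 11 and 13 of HoxA were measured in every library.

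Genes were compared with each other per kilobase of their longest coding transcript. Hoxc10, a posterior gene active in the hindlimb and not in the forelimb of embryos, stood first with 50.7 ± 3.8 CPM per kb in WT and 39.2 ± 2.93 CPM per kb in mdx/mTR (SD, n = 6 each). It held 52.4% of the summed Hox level per kb in WT and 47.5% in mdx/mTR. Hoxa10, a gene of the upper limb segment and the uterus, came next with 10.5 ± 0.43 CPM per kb in WT and 10.3 ± 0.52 in mdx/mTR. Hoxc10 and Hoxa10 were each separated from the next gene in every library of both groups. Below them, Hoxa9 (3.88 ± 0.43 CPM per kb in WT) and Hoxc9 (3.62 ± 0.19) overlapped. Hoxa7, Hoxa11, Hoxc4, Hoxc6 and Hoxc11 followed between 2.78 and 2.16 CPM per kb in WT, each overlapping the next in order. From Hoxa3 (1.65 ± 0.23) down to Hoxd3 (0.141 ± 0.053), every tested gene overlapped its neighbour in WT. Hoxa13 ranked 13 of 39 in WT and 21 in mdx/mTR, and Hoxa11 ranked 6 and 11.

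**Figure D1:**
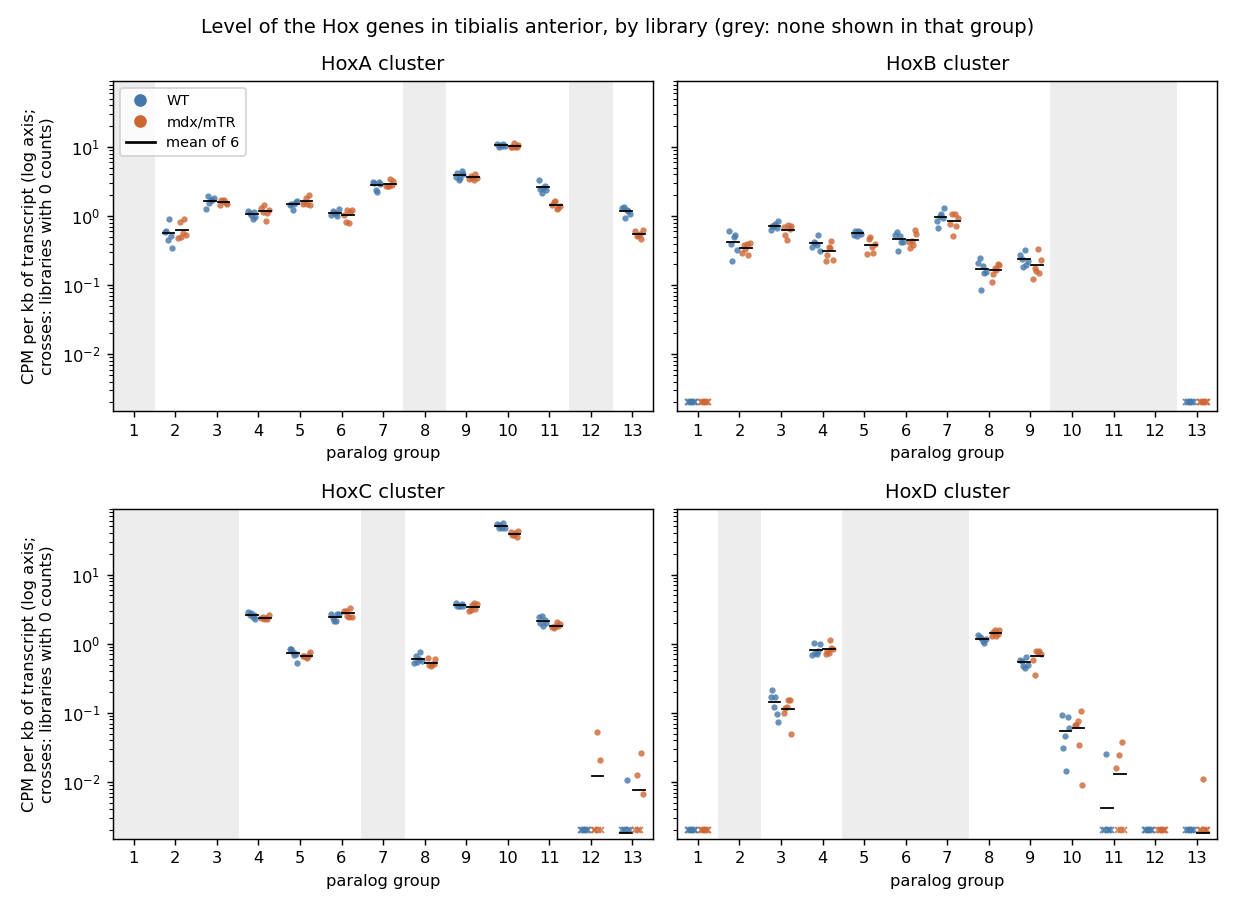
Level of each Hox gene in each library, in CPM per kb of the longest coding transcript on a log axis, by paralog group (horizontal) and cluster (panels); points are libraries, bars are means of 6, crosses are libraries with 0 counts and grey marks a group with none shown in that cluster. Hoxc10 stands highest at 50.7 CPM per kb in WT and 39.2 in mdx/mTR, Hoxa10 follows at 10.5 and 10.3, and Hoxa11 and Hoxa13 are the HoxA genes whose groups separate.

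By cluster, HoxC was highest, with a summed level of 62.9 ± 4.54 CPM per kb in WT and 50.8 ± 3.01 in mdx/mTR. HoxA summed to 27 ± 1.27 in WT and 25.2 ± 0.92 in mdx/mTR. HoxB, whose members pattern mainly the hindbrain and trunk, summed to 3.96 ± 0.30 and 3.33 ± 0.36 CPM per kb. HoxD summed to 2.75 ± 0.23 and 3.12 ± 0.27 CPM per kb. The order of HoxC over HoxA over the other clusters held in each group, whereas HoxB and HoxD overlapped in mdx/mTR. These sums depend on the transcript length used, and HoxA in WT ran from 21.5 to 41.2 CPM per kb over the alternatives. Without Hoxc10, the other 8 HoxC genes summed to 12.2 ± 0.80 CPM per kb in WT and 11.6 ± 0.32 in mdx/mTR.

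By paralog group, group 10 held 63.4% of the summed Hox level per kb in WT, group 9 held 8.56%, group 11 held 4.95% and group 13 held 1.23%. The 23 genes of groups 1 to 8 held 21.8% together. Hoxd3 and Hoxd4 share 62.3% and 52.3% of their exonic bases with other genes on their strand in GENCODE M21, so their levels are uncertain. The largest shares facing antisense genes were 52.9% for Hoxb3, 35% for Hoxa11, 27.3% for Hoxb2, 25.4% for Hoxa3 and 20.4% for Hoxa7, and other members had smaller ones. Whether counting used strand is not given in the sources used here, so sense and antisense reads cannot be told apart for them.

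Between the groups, 5 of the 30 tested Hox genes passed an adjusted p of 0.05 in edgeR's quasi-likelihood test (16.7%). Over all 13937 tested genes the share was 48.3%. Hoxa13, Hoxa11, Hoxc10 and Hoxb5 were lower in mdx/mTR (4 of 30, 13.3%, against 23.4% of all genes) and Hoxd8 was higher (1 of 30, 3.33%, against 25% of all genes). With library totals alone as the scaling, the Hox calls split into 3 higher and 3 lower. Of all genes called under that scaling 78.2% were higher, against 51.6% of those called with TMM. The median log2 fold change of the 30 was -0.10 (mdx/mTR over WT), against 0.01 over all genes, and it was 0.06 with library totals, under which the median of all genes was 0.17. The groups did not overlap for 4 of the 30, all lower in mdx/mTR, while 12.6% of all genes lay apart in that direction. The count was also split by depth. Among Hox genes with at least 1000 counts in all, 4 of 16 passed (50.2% of all such genes), and among those under 1000 counts, 1 of 14 passed (40% of all such genes). The 25 Hox genes that did not pass all had a 95% interval within 1 log2 unit of 0 on either side, and 15 of them within 0.5.

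**Figure D2:**
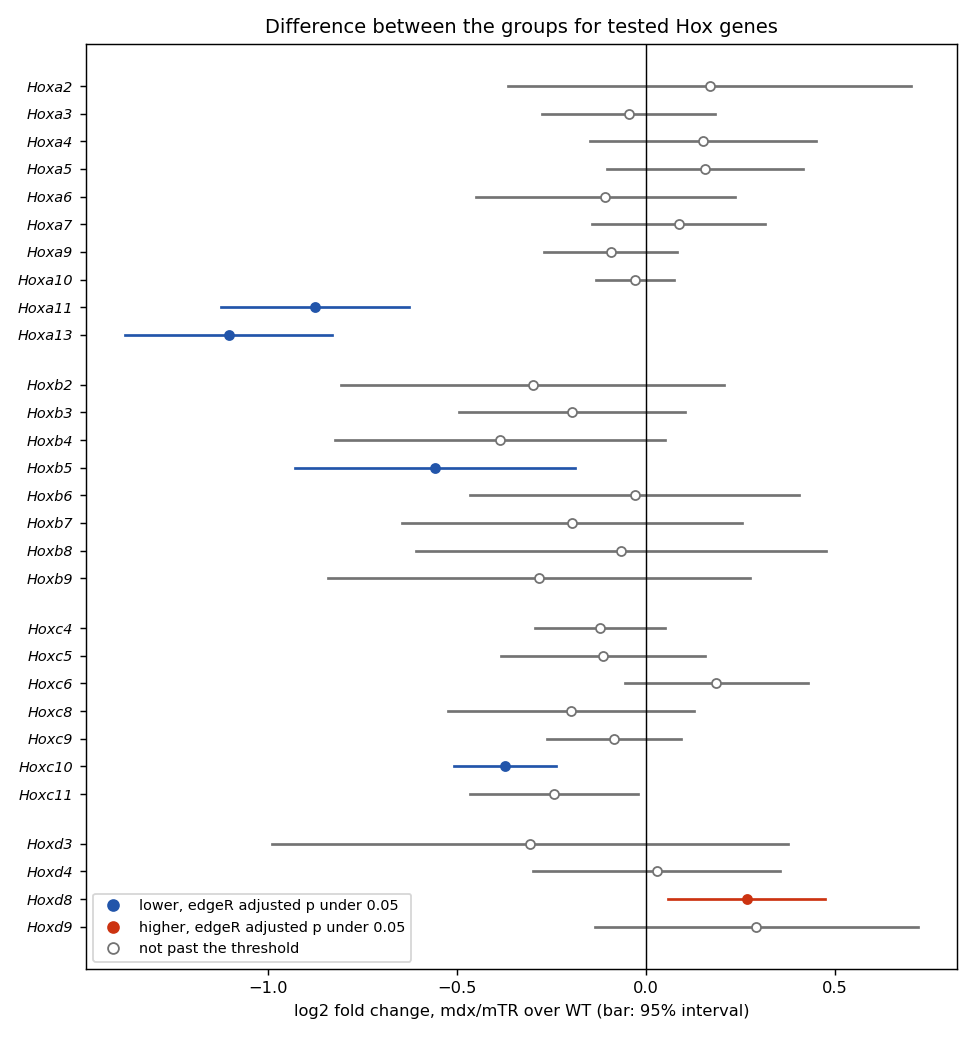
Log2 fold change (positive values are higher in mdx/mTR than in WT) for tested Hox genes, in order of cluster and paralog group; bars are 95% intervals from edgeR and filled points passed an adjusted p of 0.05. Hoxa13 (-1.10) and Hoxa11 (-0.88) lie farthest from 0, Hoxb5 (-0.56) and Hoxc10 (-0.37) are also lower, and Hoxd8 (0.27) is higher.

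Hoxa13, the group 13 gene that patterns the foot and the genital tract, had the smallest p of the Hox genes. Its level in WT ran from 2.25 to 3.18 CPM with a median of 2.90, and in mdx/mTR from 1.11 to 1.52 CPM with a median of 1.30. Every mdx/mTR library lay below every WT library. Its counts behind these levels were 81 to 114 per WT library and 47 to 93 per mdx/mTR library. The mean fell from 2.83 ± 0.36 to 1.31 ± 0.15 CPM, a log2 fold change of -1.10 ± 0.12 (SE; edgeR adjusted p 1.24e-05), which ranked 379 by p among all tested genes. In whole muscle, fewer cells of a type and less RNA per cell cannot be told apart.

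Hoxa11, the group 11 gene of the lower limb segment, changed in the same direction. It ran from 5.0 to 7.72 CPM in WT with a median of 5.81, and from 2.86 to 3.77 CPM in mdx/mTR with a median of 3.23. The groups were again apart, with WT replicate 1 the highest library. The mean fell from 6.01 ± 0.95 to 3.28 ± 0.36 CPM, a log2 fold change of -0.88 ± 0.11 (edgeR adjusted p 3.84e-05). Part of this gene is transcribed from both strands: Hoxa11os, its antisense RNA, fell from 5.0 ± 0.76 to 2.71 ± 0.15 CPM, with a log2 fold change of -0.88 ± 0.10 (adjusted p 2.1e-05). There were 83.4 ± 5.95 Hoxa11os counts per 100 Hoxa11 counts in WT and 83.5 ± 9.62 in mdx/mTR. Since 35% of the exonic bases of Hoxa11 face Hoxa11os, the pair may share reads and is not independent evidence. Hoxa13 has no such overlap in GENCODE M21.

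Hoxa10, the next gene toward the 3′ end, was the highest Hox gene per kb that did not pass. It ran from 25.9 to 28.3 CPM in WT with a median of 26.9, and from 25.3 to 28.9 CPM in mdx/mTR with a median of 25.9. The groups covered nearly the same range. The mean was 27 ± 1.09 CPM in WT and 26.5 ± 1.33 in mdx/mTR, a log2 fold change of -0.03 ± 0.05 with a 95% interval of -0.13 to 0.07 (adjusted p 0.636). Under library totals alone its value was 0.13 (adjusted p 0.0380), below the shift of 0.17 in the median of all genes. Hoxa9, a gene studied in blood stem cells and in the satellite cells of old muscle, was the next. It ran from 10.7 to 14.4 CPM in WT with a median of 12.6, and from 10.9 to 13.3 CPM in mdx/mTR with a median of 11.4. These groups overlapped, with a log2 fold change of -0.09 ± 0.08 (adjusted p 0.352).

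**Figure D3:**
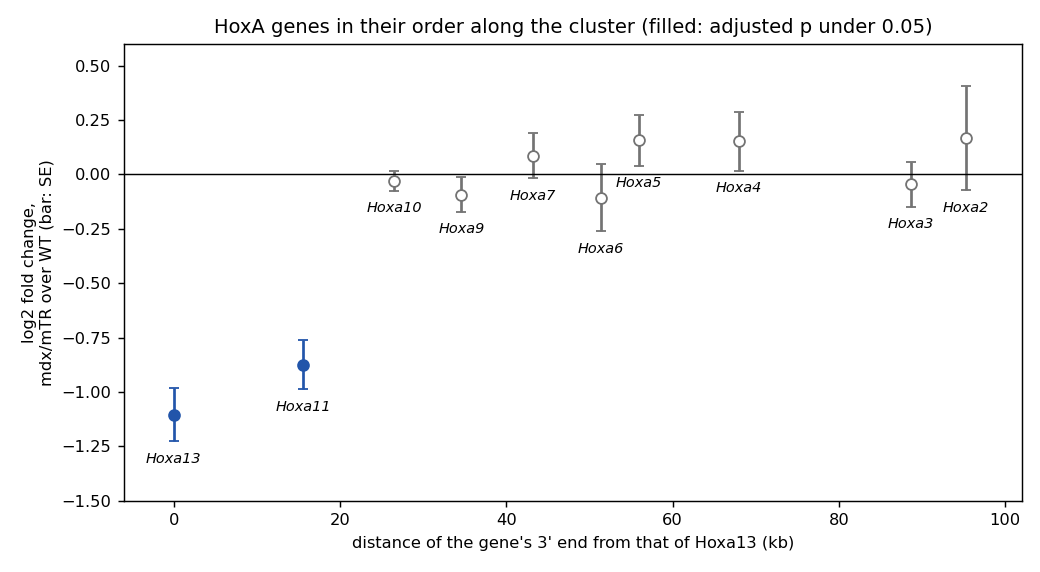
Log2 fold change (vertical; positive values are higher in mdx/mTR than in WT; bars are SE) of HoxA genes against the distance in kb of each gene's 3′ end from that of Hoxa13 (horizontal); filled points passed an adjusted p of 0.05. Hoxa13 and Hoxa11, 15.6 kb apart, lie at -1.10 and -0.88, and the genes shown from Hoxa10 at 26.5 kb onward lie between -0.11 and 0.17.

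The ratio of counts within a library does not depend on scaling. Per 100 Hoxa10 counts there were 10.5 ± 1.46 Hoxa13 counts in WT and 4.96 ± 0.55 in mdx/mTR. Hoxa11 stood at 22.2 ± 3.02 per 100 Hoxa10 counts in WT and at 12.4 ± 1.19 in mdx/mTR. For both genes the ranges of the groups were apart, so they were reduced relative to their neighbour in each mdx/mTR library. Hoxa9, in contrast, stood at 46.4 ± 5.62 per 100 Hoxa10 counts in WT and at 44.4 ± 4.50 in mdx/mTR, with overlapping ranges. Per 100 Hoxa11 counts there were 47.5 ± 5.13 Hoxa13 counts in WT and 40.5 ± 6.23 in mdx/mTR, also overlapping.

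**Figure D4:**
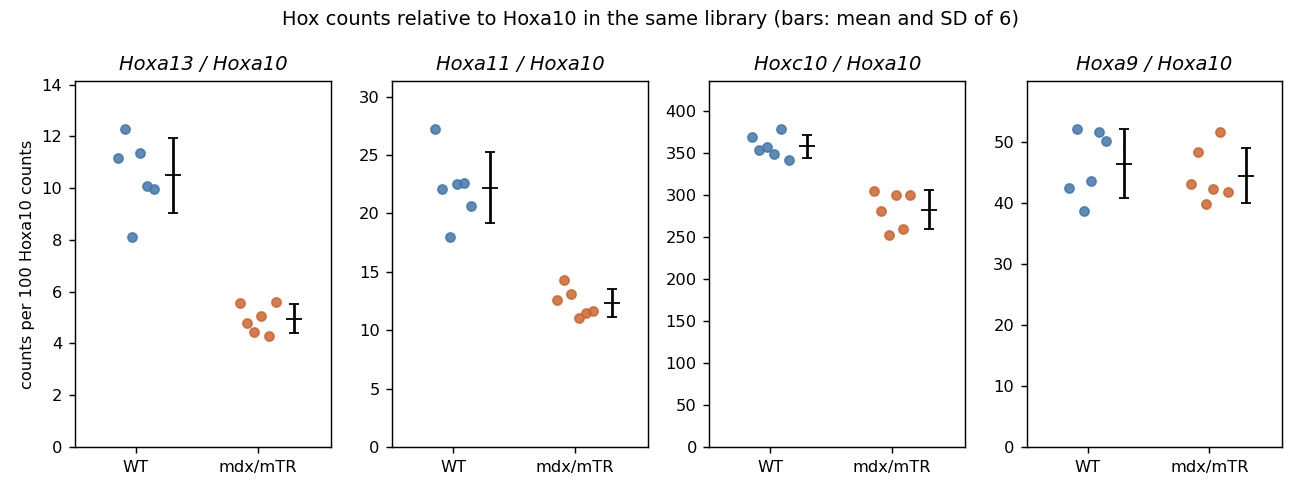
Counts of Hoxa13, Hoxa11, Hoxc10 and Hoxa9 per 100 Hoxa10 counts of the same library (vertical) in WT and mdx/mTR; points are libraries and bars are the mean and SD of 6. The ratios of Hoxa13 (10.5 against 4.96), Hoxa11 (22.2 against 12.4) and Hoxc10 (358 against 282) separate the groups, and that of Hoxa9 (46.4 against 44.4) does not.

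The other 7 HoxA genes did not pass. Hoxa2, which sets the identity of the second pharyngeal arch, had a log2 fold change of 0.17 (adjusted p 0.587). Hoxa3, needed for thymus and parathyroid, stood at -0.04 (adjusted p 0.740). Hoxa4 stood at 0.15 (adjusted p 0.371) and Hoxa5, a gene of lung and neck-to-thorax patterning, at 0.16 (adjusted p 0.283). These 4 anterior genes thus lay within 0.2 log2 units of 0. Hoxa6 stood at -0.11 (adjusted p 0.592) and Hoxa7 at 0.09 (adjusted p 0.509). No HoxA gene of groups 1 to 10 passed (0 of 9, where 48.3% of all tested genes passed). At an unadjusted p of 0.05, and with DESeq2, limma-voom or the authors' deposited table, their count was also 0. This set ends where the calls in these data begin, so its count of 0 follows from the cut and is no separate result. With library totals alone as the scaling, Hoxa10 passed at 0.13 (edgeR adjusted p 0.0380).

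In the HoxC cluster, Hoxc10 passed. It ran from 89.0 to 105.7 CPM in WT with a median of 95.3, and from 66.7 to 81.5 CPM in mdx/mTR with a median of 75.1. The groups were apart. The mean fell from 96.8 ± 7.26 to 74.8 ± 5.59 CPM, a log2 fold change of -0.37 ± 0.06 (adjusted p 0.000264). With library totals alone as the scaling it was -0.22 (adjusted p 0.00121), where the median of all genes was 0.17. Per 100 Hoxa10 counts it stood at 358 ± 13.6 in WT and 282 ± 22.7 in mdx/mTR, again apart. Of its exonic bases, 8.70% are shared with an annotated Hoxc5 transcript, and Hoxc5 itself was at -0.11 (adjusted p 0.468).

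Hoxc11, the group 11 paralog next to Hoxc10, fell just short of the threshold. It ran from 3.63 to 5.11 CPM in WT against 3.42 to 4.13 in mdx/mTR, overlapping, with a log2 fold change of -0.24 ± 0.10 (adjusted p 0.0577). In the authors' deposited table its adjusted p was 0.0381, and DESeq2 gave 0.0447. Per 100 Hoxc10 counts there were 4.51 ± 0.41 Hoxc11 counts in WT and 4.96 ± 0.39 in mdx/mTR, which overlapped. The log2 fold changes of Hoxc9, a thoracic identity gene of motor neurons, and Hoxc8 were -0.08 and -0.20 (adjusted p 0.408 and 0.282). Those of Hoxc6 and Hoxc4 were 0.19 and -0.12 (adjusted p 0.171 and 0.216). Hoxc6 passed with library totals alone, at 0.35 (adjusted p 0.0330).

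HoxB was the cluster in which the 8 tested genes all had negative log2 fold changes, from -0.56 to -0.03, although Hoxb6 and Hoxb8 turned positive with library totals alone (0.13 and 0.09) and Hoxb6 with upper quartile scaling (0.01). Hoxb5, which helps to place the forelimb and the shoulder, was the one that passed. It ran from 0.972 to 1.14 CPM in WT with a median of 1.07, and from 0.540 to 0.957 CPM in mdx/mTR with a median of 0.714. The groups were apart by a narrow margin, and the gene is low, with 463 counts over all libraries. Its log2 fold change was -0.56 ± 0.17 (adjusted p 0.0134), but it did not pass with library totals alone (-0.40, adjusted p 0.0634). Per 100 Hoxa10 counts it stood at 3.95 ± 0.39 in WT and 2.73 ± 0.58 in mdx/mTR, with the ranges apart.

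The log2 fold changes of Hoxb2 and Hoxb3, both hindbrain genes, were -0.30 and -0.19 (adjusted p 0.296 and 0.247). Hoxb4, known from blood stem cell renewal, had the largest value among those that did not pass, -0.38 ± 0.20 with an interval of -0.82 to 0.05 (adjusted p 0.120). Hoxb6 stood at -0.03 and Hoxb7 at -0.20 (adjusted p 0.913 and 0.448). Hoxb8, known from microglia and grooming behaviour, stood at -0.07, and Hoxb9 at -0.28 (adjusted p 0.841 and 0.373). All 7 intervals included 0, and only those of Hoxb3 and Hoxb6 lay within 0.5 log2 units of it.

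HoxD held the one gene that was higher. Hoxd8, a trunk-level gene, ran from 2.74 to 3.5 CPM in WT with a median of 3.15, and from 3.39 to 4.14 CPM in mdx/mTR with a median of 3.76. The lowest mdx/mTR libraries lay within the WT range. The mean rose from 3.13 ± 0.28 to 3.76 ± 0.34 CPM, a log2 fold change of 0.27 ± 0.09 (adjusted p 0.0297). This call was lost without any one of WT replicates 4, 5 and 6 or mdx/mTR replicates 2, 3 and 6, with a highest adjusted p of 0.0699. It was also lost with counts thinned to the smallest library total (adjusted p 0.0786). With library totals alone its value was 0.42 (adjusted p 0.00392). Per 100 Hoxa10 counts it stood at 11.6 ± 1.07 in WT and 14.2 ± 0.98 in mdx/mTR. These ranges were apart, with a highest WT ratio of 12.8 and a lowest mdx/mTR ratio of 13.1. Hoxd9, a posterior limb gene, stood at 0.29 ± 0.19 (adjusted p 0.224), Hoxd4 at 0.03 (adjusted p 0.883) and Hoxd3 at -0.31 (adjusted p 0.433).

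**Figure D5:**
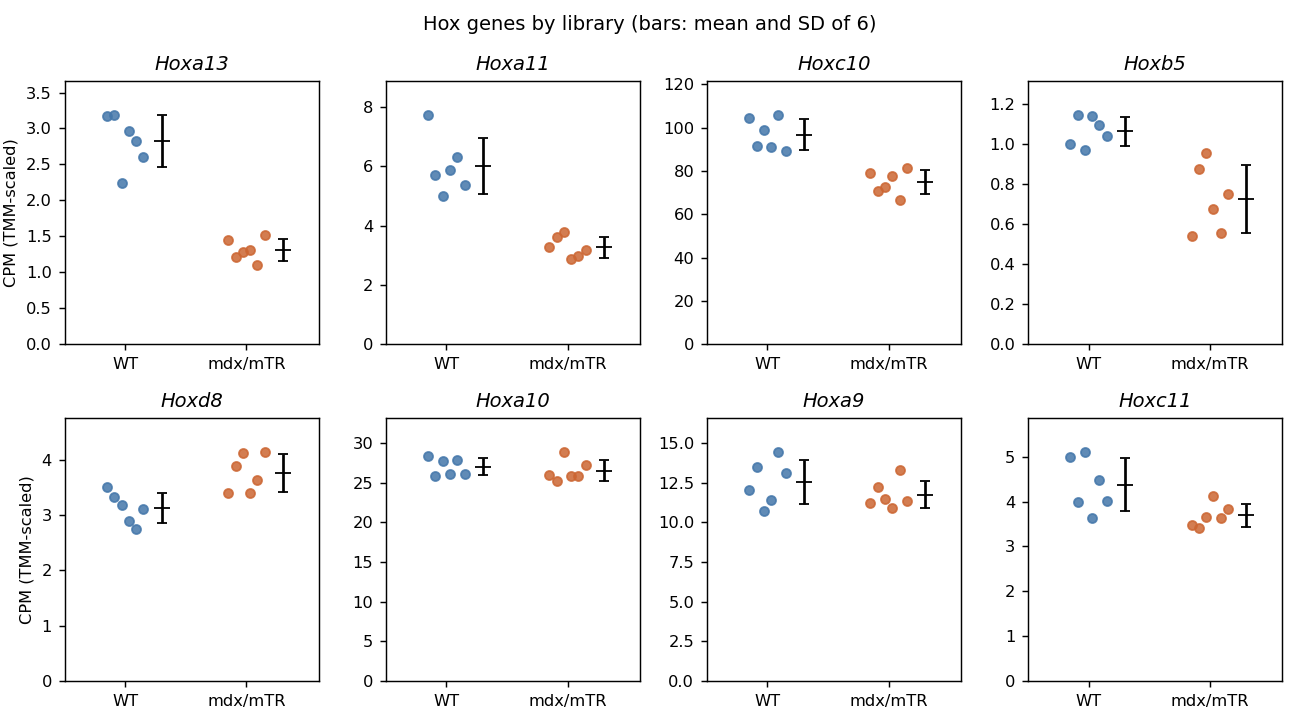
CPM (TMM-scaled) of 8 Hox genes in each WT and mdx/mTR library; points are libraries and bars are the mean and SD of 6. Hoxa13, Hoxa11, Hoxc10 and Hoxb5 are lower in each mdx/mTR library than in any WT library, Hoxd8 is higher with overlap, and Hoxa10, Hoxa9 and Hoxc11 overlap.

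Counted by position, 3 of the 9 tested genes of groups 9 to 13 were lower and none was higher, while in groups 1 to 8 1 of 21 was lower (Hoxb5) and 1 higher (Hoxd8). Of all tested genes, 23.4% were lower and 25% higher, and the difference between these classes was not tested. The summed level of groups 9 to 13 was 160 ± 10.1 CPM in WT and 131 ± 6.03 in mdx/mTR, with the groups apart. That of groups 1 to 8 was 42.7 ± 2.06 and 42.7 ± 1.44 CPM. Hoxc10 carried most of the first difference, with means of 96.8 CPM in WT and 74.8 in mdx/mTR. Without it, all other Hox genes, groups 1 to 8 included, summed to 106 ± 4.70 CPM in WT and 99.4 ± 3.01 in mdx/mTR. These sums overlapped, but they include groups 1 to 8, and groups 9 to 13 without Hoxc10 were not summed on their own. By group, the sums of group 10 (124 to 101 CPM), group 11 (10.4 to 6.99 CPM) and group 13 (2.84 to 1.34 CPM) were apart, each in the lower direction. The sum of group 9 (22.9 to 21.8 CPM) overlapped. Groups 11 and 13 do not hold Hoxc10, so the lower sums were not those of Hoxc10 alone. As a share of raw library counts, all Hox genes made up 0.0192% ± 0.0008 in WT and 0.0184% ± 0.0008 in mdx/mTR, which overlapped, so the fall in the summed level depends on the scaling.

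In the authors' deposited table, 30 Hox genes have an adjusted p and 6 are below 0.05, of which 5 are the genes named above and the other is Hoxc11. The share over all genes was not computed for that table. DESeq2, run here on the same libraries, also called 6 Hox genes, and it called 42.6% of all genes. The log2 fold changes of Hoxa13, Hoxa11 and Hoxc10 in the authors' deposited table are -1.08, -0.86 and -0.38. For Hoxb5 and Hoxd8 the authors' deposited table gives -0.54 and 0.25.

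Marker genes of other cell types differed between the same libraries, in both directions. Counts of markers called lower and higher stand beside 23.4% and 25% of all tested genes. The Schwann cell markers all fell (3 of 3), and the groups were apart for each. Sox10, a factor that defines these cells, had a log2 fold change of -0.88 (adjusted p 0.00216). The 3 summed to between 27.9 and 35.6 CPM in WT and between 14 and 22.3 CPM in mdx/mTR. Endothelial markers fell in 3 of 5 cases, led by Tek (-0.53, adjusted p 4.31e-06) and Emcn (-0.60, adjusted p 0.00213), and their sum ran from 402 to 536 CPM in WT against 320 to 426 in mdx/mTR. These lists moved in the direction of Hoxa13, Hoxa11, Hoxc10 and Hoxb5, and their part in those results was not tested.

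Markers of fibroblasts and fibro-adipogenic progenitors, the connective tissue cells of muscle, rose in 6 of 8 cases, where 25% of all genes rose. Pdgfra, a receptor that defines these cells, had a log2 fold change of 0.91 (adjusted p 5.24e-06) and Dpt one of 0.94 (adjusted p 6.33e-06). The other 2 of the 8 did not pass. All 8 together summed to 642 to 1328 CPM in WT against 1771 to 4008 in mdx/mTR. Collagen genes weigh heavily in this sum: Col3a1 alone had means of 519 CPM in WT and 1654 in mdx/mTR. Macrophage markers rose in 5 of 5 cases, among them C1qa (1.74, adjusted p 1.07e-05) and Cd68 (2.55, adjusted p 2.42e-05), and summed to 44.5 to 69.2 CPM in WT and 100.3 to 263 in mdx/mTR. Tenocyte markers rose in 3 of 3 cases, with Tnmd at 0.86 (adjusted p 0.00267) and Scx at 0.62 (adjusted p 0.0356), and sums of 6.25 to 14 CPM in WT and 12 to 17.7 in mdx/mTR. These lists moved in the direction of Hoxd8 and against that of the 4 lower Hox genes, and their part was not tested.

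Satellite cell markers rose in 2 of 5 cases (25% of all genes), Chodl (0.37, adjusted p 0.0142) and Myf5 (0.54, adjusted p 0.0246), and Pax7, which defines these stem cells, stood at 0.13 (adjusted p 0.436). The sum of the 5 ran from 36.0 to 45.5 CPM in WT against 45.8 to 51.8 in mdx/mTR. Sdc4, which did not pass, weighs most in this sum, with means of 26.6 CPM in WT and 29.0 in mdx/mTR. Mural cell markers were split, with Myh11 (-0.42, adjusted p 0.00258) and Rgs5 (-0.36, adjusted p 0.00284) lower, Acta2 higher, and sums of 301 to 416 CPM in WT and 307 to 355 in mdx/mTR. Of the myofibre markers, 1 of 6 rose (Mylpf, 0.42, adjusted p 0.00322), and the next by p, Tnnt3, stood at -0.24 (adjusted p 0.0562). The one tested keratinocyte marker, Krt10, stood at -0.02 (adjusted p 0.917).

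Hox proteins bind DNA with TALE partners, and 3 of the 8 tested were higher and none lower, beside 25% higher and 23.4% lower of all tested genes. Meis2 rose from 0.136 ± 0.040 to 0.439 ± 0.112 CPM, a log2 fold change of 1.67 ± 0.27 (adjusted p 0.000223), from a level near the counting limit in WT. Meis3 rose by 0.76 ± 0.20 (adjusted p 0.00601) and Pknox2 by 0.20 ± 0.08 (adjusted p 0.0470). Of these, the groups of Meis2 alone were apart. Pbx2 and Pbx3 stood at 0.16 and -0.01 (adjusted p 0.0842 and 0.953). Meis1 stood at -0.12 (adjusted p 0.289) and Pknox1 at 0.01 (adjusted p 0.908). Pbx4, with 39 counts in all, was not tested.

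Other factors of limb identity were measured beside the Hox genes. Tbx4, the hindlimb T-box factor, ran from 3.15 to 4.30 CPM in WT with a median of 3.68, and from 10.9 to 13.9 CPM in mdx/mTR with a median of 11.8. Its groups were far apart, with a log2 fold change of 1.70 ± 0.09 (adjusted p 3.1e-08). Tbx5, its forelimb counterpart, had 19 counts in all and was not tested, and Lmx1b, a dorsal limb factor, had 71. En1, the ventral counterpart, rose from 0.954 ± 0.207 to 2.85 ± 0.30 CPM, by 1.58 ± 0.14 on the log2 scale (adjusted p 2.63e-06). Shox2, which acts in the upper limb segment, rose by 0.69 ± 0.12 (adjusted p 0.000466), and both were apart. Lbx1, a gene of migrating muscle precursors, fell, with a log2 fold change of -0.37 ± 0.10 (adjusted p 0.00873). Pitx1, the hindlimb factor that acts ahead of Tbx4, stood at -0.29 (adjusted p 0.300). Thus 3 of the 6 tested genes of this list were higher (25% of all genes) and 1 lower (23.4% of all genes), and the higher ones went opposite to Hoxa13, Hoxa11 and Hoxc10.

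Within the clusters and beside them, 7 of the 17 non-coding and neighbouring genes in the table were tested, of which 2 were higher and 2 lower, where 48.3% of all genes were called in either direction. Hoxa11os, described above, had the smallest p. Hotair, a long non-coding RNA transcribed from the HoxC cluster that is known for binding Polycomb proteins, ran from 1.11 to 1.48 CPM in WT with a median of 1.18, and from 1.63 to 3.0 CPM in mdx/mTR with a median of 1.84. The groups were apart, with mdx/mTR replicate 1 the highest, and the log2 fold change was 0.71 ± 0.16 (adjusted p 0.00296). Hotair thus rose in the libraries in which Hoxc10 fell, and any link between them was not tested. Hoxaas2 rose by 0.67 (adjusted p 0.0295) from 0.354 CPM in WT, and Mtx2, the gene beside the HoxD cluster that encodes a mitochondrial protein, fell, with a log2 fold change of -0.28 (adjusted p 0.0358). The microRNA genes Mir10a, Mir10b, Mir196a-1, Mir196a-2 and Mir196b had 1 to 66 counts each and were not tested.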

How the data were processed

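Total RNA of 12 tibialis anterior samples was sequenced, and groups and replicate numbers come from the labels. The submitters' processing notes name FastQC, STAR, DESeq2 and the build mm10. The counter, the annotation and the use of strand are not given in the sources used here. The authors deposited whole-number counts per gene symbol. Per the file headers, a second deposited table gives the authors' own comparison: each gene's mean signal, its log2 fold change and error, the test's score, and raw and adjusted p-values. No per-sample column was left unmatched.

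The deposited counts went unchanged into edgeR 4.0.16 (R 4.3.3; filterByExpr, TMM scaling, glmQLFit and glmQLFTest with group as the only term, Benjamini-Hochberg over all 13937 tested genes, threshold 0.05). These genes held 99.97% of counts. The SE of a log2 fold change was taken from its F statistic (size over root F), and 95% intervals use 10 residual degrees of freedom. On simulated counts for these 13937 genes with 200 changed, edgeR recovered 62% of changes of 0.5 log2 units and 90% of changes of 1, with 6 false calls. DESeq2 recovered 68% and 94% of them, with 35 false calls. Replicate pairs differed by more than sampling noise (chi-square per degree of freedom 8.87 to 116 over 30 pairs), so none was treated as a duplicate. Gene models came from GENCODE M21 and promoters from RefSeq (GRCm38.p6); a symbol's model there may differ from the one counted.

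Alternatives were other low-count filters, RLE, upper quartile and library-total scaling, DESeq2 1.42.0, voom in limma 3.58.1, a replicate block, each library left out in turn, and an adjusted p of 0.01. Thinned counts, and lengths without bases shared with another gene, were added after seeing the data. Named genes are Dmd and Terc, every Hox gene, library values for the called Hox genes and the 2 highest uncalled per kb, all TALE and limb identity factors, and the 2 smallest p-values of each other list. Library values of Hoxc11, and genes beyond this rule, were chosen after their values were seen. Some genes of these lists are not reported here singly and stand only in the counts and sums. The members and lists were chosen with earlier results of these data known. Python 3.11.15, pandas 2.3.3, numpy 2.4.6 and matplotlib 3.10.9 were also used.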

Additional observations from a re-analysis of the deposited data

Results flagged for a closer look

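Among 60 groups of values (30 tested Hox genes in WT and in mdx/mTR), 1 had a library far from the others, and chance gives about 1 in 20, or 3. Hoxc4 in mdx/mTR replicate 6 stood at 5.6 CPM, where the next library was at 5.11 and the lowest at 4.87, so that the gap took 0.665 of the range, past the 95% limit of Dixon's test for 6 values.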

How the results depend on the processing

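Hoxa13, Hoxa11 and Hoxc10 kept their direction and their call in every alternative run, with adjusted p-values of at most 0.00187. Of the 39 Hox genes, 5 passed in the model as reported, 3 at an adjusted p of 0.01 (without Hoxb5 and Hoxd8), and 4 to 6 under the other alternatives and with each library left out in turn. Over all genes, 6736 passed as reported, 4621 (33.2%) at an adjusted p of 0.01 and 6125 to 6816 with a library left out. Under the other alternatives the share of all genes ran from 35.4% with the loosest filter to 51.3% with library totals alone. Hoxc11 also passed without WT replicate 2 or 4 or mdx/mTR replicate 4, Hoxd9 without mdx/mTR replicate 2, and Hoxb4 without mdx/mTR replicate 5. Same-numbered libraries deviated together (correlation over 0.1) in 2 of 6 pairs, so the numbers were not taken to pair samples; libraries 1 and 2 of WT correlated best with their own number. The replicate block gave 4 Hox genes (Hoxd8 lost, adjusted p 0.0577) and 6420 genes in all. Thinned counts and a minimum of 1 CPM in 6 libraries also gave 4, the latter because Hoxb5 was not tested. Library totals alone moved the median over all genes from 0.01 to 0.17 log2 units. The share of called genes that were higher moved from 51.6% to 78.2%. This scaling gave 3 higher and 3 lower Hox genes, adding Hoxc6 and Hoxa10. Signs turned under that scaling for Hoxb8 (0.0908), Hoxb6 (0.129), Hoxc9 (0.0717), Hoxc5 (0.0444), Hoxc4 (0.0360), Hoxa3 (0.111), Hoxa6 (0.0461), Hoxa9 (0.0671) and Hoxa10 (0.128), under upper quartile scaling for Hoxb6 (0.0106) and Hoxa10 (0.0122), and with thinned counts for Hoxb8 (0.0559). With a library left out, ranges that crossed 0 were -0.11 to 0.00078 for Hoxa3, -0.136 to 0.0440 for Hoxb6, -0.206 to 0.0548 for Hoxb8 and -0.0686 to 0.104 for Hoxd4. Apart from the shift of the scaling, the cause was not tested. Genes under 1000 counts have wide intervals: a change of 0.5 log2 units lies within those of 10 of the 25 Hox genes that did not pass.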

Other observations

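Polycomb and Trithorax proteins keep Hox clusters silent or active through histone marks. Of the 17 Polycomb genes tested, 6 were higher and 3 lower in mdx/mTR (52.9% passed, against 48.3% of all genes). Ezh2, the methyltransferase that lays down the repressive mark in dividing cells, rose from 4.34 ± 0.29 to 6.27 ± 0.33 CPM, by 0.53 ± 0.07 on the log2 scale (edgeR adjusted p 5.47e-05), with the groups apart. Phc1, a Polyhomeotic subunit, fell from 32.1 ± 5.13 to 19.5 ± 2.76 CPM (log2 fold change -0.72 ± 0.12, adjusted p 0.000254), also apart. Of the 10 Trithorax genes and H3K27 demethylases, 1 was lower (23.4% of all genes were), Kmt2d (-0.14 ± 0.05, adjusted p 0.0384), and the next by p, Kdm6b, a demethylase that removes the repressive mark, stood at -0.13 (adjusted p 0.215).

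Retinoic acid activates Hox genes in embryos. Cyp26b1, which degrades it and is high in the distal limb bud, fell from 12.3 ± 6.40 to 5.14 ± 1.85 CPM (log2 fold change -1.27 ± 0.35, adjusted p 0.00818). Its WT libraries spread from 3.71 to 21.6 CPM, so the groups overlapped. The receptor gene Rara rose by 0.34 ± 0.11 (adjusted p 0.0190), also with overlap. Of the 6 tested genes of this list 1 was higher and 1 lower (25% and 23.4% of all genes), and the Cdx genes, which drive posterior Hox genes in embryos, had 0 counts.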
